A study of Mus musculus with 18 samples.

Results

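Collagen genes were taken as the protein-coding mouse genes of the expression table whose symbol is Col, a number, the letter a and a number, which gave 44 of the 27997 genes. By the kind of chain, 11 were fibrillar, 6 basement membrane, 6 beaded filament, 9 fibril-associated (FACIT), 3 network, 2 multiplexin and 4 transmembrane collagens, and the remaining 3 were placed in a class called other. RNA had been sequenced in bulk from adherent neural stem cell (NSC) cultures and from the astrocytes made from them, with 3 replicate cultures in each of 6 groups. Of the 3 lines, 2 were grown from spinal cord neurospheres sorted for a reporter that marks a history of DNGR-1 (Clec9a) expression: the traced tdTomato line (genotype DNGR-1 +/- Tom+/-) and the traced EYFP line (DNGR-1 +/- EYFP+/-). The hippocampal line (DNGR-1+/+) came from GlastCreHuweflROSALSLEYFP mice. All NSCs were kept for 4 days in medium with EGF, bFGF, heparin and laminin, and all astrocytes were collected after 6 days, with 20 ng/ml BMP4 in place of the growth factors. Each genotype was a single line and its replicates were 3 successive passages of it, so the p-values measure the spread between cultures of a line and not between animals. Tissue of origin, Cre driver and the floxed Huwe1 allele cannot be told apart between the traced and the hippocampal lines. Between the fates, the addition of BMP4 cannot be told apart from the loss of the growth factors or from 4 against 6 days of culture. The paper also lists no heparin or laminin for the astrocyte medium, and their loss cannot be told apart from BMP4 either.

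Collagens are secreted or membrane proteins built from 3 chains wound into a triple helix, and most types need particular chains in the same trimer. Fibrillar collagens form the cables of connective tissue, and FACIT collagens sit on the surface of those fibrils. Collagen IV is the scaffold of basement membranes, and collagen VI forms beaded filaments next to them. The normal brain holds little fibrillar collagen, and its basement membranes lie around blood vessels and under the pia, where the endfeet of astrocytes meet them. Levels are given as deposited, on a log2 scale relative to library size, on which 10 on the linear scale is 3.32. The transform is not named. It looks like the regularized log of DESeq2, which draws genes with few reads towards their mean over the libraries, so changes of low genes may be understated. Changes were tested with limma over the 15448 genes that reached 3.32 in at least 3 of the 18 libraries, and a gene is said to rise or fall only where its adjusted p was below 0.05.

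Upstream sequence is shown for 6 collagen genes on which the results turn: Col23a1 and Col28a1, which had the largest rise and the largest fall of the tested collagen genes in the traced lines, and the neighbouring pairs Col4a5 with Col4a6 and Col6a1 with Col6a2. The sequences are RefSeq promoters on GRCm38.p6, read 5′ to 3′ on the strand of the gene and ending at the base before the first annotated transcript start, and 35 of the 44 collagen genes had an entry. They lie at chr11:51289670-51289919 (plus strand), chr6:8192618-8192867 (minus), chrX:141475169-141475384 (plus), chrX:141474077-141474326 (minus), chr10:76726169-76726294 (minus) and chr10:76623631-76623880 (minus). Capitals mark matches, on either strand, to GGGCGG or CCAAT or TATAAA or GGCGCC, and no matches overlapped.
Col23a1: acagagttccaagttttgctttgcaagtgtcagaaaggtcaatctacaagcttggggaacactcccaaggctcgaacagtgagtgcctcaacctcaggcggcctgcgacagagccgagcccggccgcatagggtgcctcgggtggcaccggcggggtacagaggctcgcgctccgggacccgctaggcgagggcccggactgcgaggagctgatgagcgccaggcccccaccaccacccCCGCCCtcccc
Col28a1: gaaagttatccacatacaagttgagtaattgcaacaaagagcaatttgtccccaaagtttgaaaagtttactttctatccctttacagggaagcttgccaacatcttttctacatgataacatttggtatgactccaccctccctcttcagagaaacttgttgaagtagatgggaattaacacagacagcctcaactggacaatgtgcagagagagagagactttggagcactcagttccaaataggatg
Col4a5: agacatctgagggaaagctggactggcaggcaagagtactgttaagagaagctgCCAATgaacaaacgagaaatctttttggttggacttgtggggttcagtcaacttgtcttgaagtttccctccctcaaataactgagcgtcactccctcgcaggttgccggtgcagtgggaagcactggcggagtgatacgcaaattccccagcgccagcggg
Col4a6: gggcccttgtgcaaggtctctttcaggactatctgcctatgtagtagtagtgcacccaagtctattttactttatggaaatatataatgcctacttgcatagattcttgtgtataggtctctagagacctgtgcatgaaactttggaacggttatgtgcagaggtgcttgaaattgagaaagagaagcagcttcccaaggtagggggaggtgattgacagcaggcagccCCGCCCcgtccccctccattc
Col6a1: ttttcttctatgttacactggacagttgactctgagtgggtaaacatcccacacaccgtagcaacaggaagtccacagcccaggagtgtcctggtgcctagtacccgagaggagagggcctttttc
Col6a2: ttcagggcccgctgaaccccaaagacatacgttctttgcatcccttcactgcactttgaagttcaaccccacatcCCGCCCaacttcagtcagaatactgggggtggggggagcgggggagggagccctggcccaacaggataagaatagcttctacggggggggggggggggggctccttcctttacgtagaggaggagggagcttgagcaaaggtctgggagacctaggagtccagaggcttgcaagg
GGGCGG was present once in the stretches of Col23a1, Col4a6 and Col6a2, and CCAAT once in that of Col4a5. The 2 collagen IV genes on the X chromosome, which start 1308 bases apart and point away from each other, therefore shared none of these motifs. In 250 bases of all 32851 promoters of the same table, 32.7% held GGGCGG. In 216 bases, the length shown for Col4a5, 30.5% held CCAAT, so these matches are common ones. No match was found for Col28a1 or for the 126 bases shown for Col6a1. The stretch of Col23a1 was 66% G and C and that of Col28a1 40.4%, against a median of 52.4% over all promoters.

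Of the 44 collagen genes, 31 passed the filter on low values and 13 did not. The 13 were Col1a2 and Col24a1 among the fibrillar, Col6a4, Col6a5 and Col6a6 among the beaded filament, Col14a1 and Col19a1 among the FACIT, Col8a1 and Col10a1 among the network and Col13a1, Col17a1 and Col25a1 among the transmembrane collagens, and the multiplexin Col15a1. The highest of them in any library was Col14a1 at 3.78, and 5 were below 0 in every library. All 6 basement membrane genes passed. Of the 31, 4 passed only through 1 group in which they were high: Col2a1 and Col8a2 through the hippocampal astrocytes and Col4a3 and Col6a3 through the tdTomato astrocytes. A difference that favours that group was therefore partly set by the filter. With no filter, the rise of each with the fate in that line still passed, at a limma adjusted p of 5.53e-06 (Col2a1), 2.61e-06 (Col8a2), 0.000562 (Col4a3) and 2.83e-07 (Col6a3). A mean of at least 6.64 (100 on the linear scale) in some group was reached by 19 collagen genes.

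**Figure D1:**
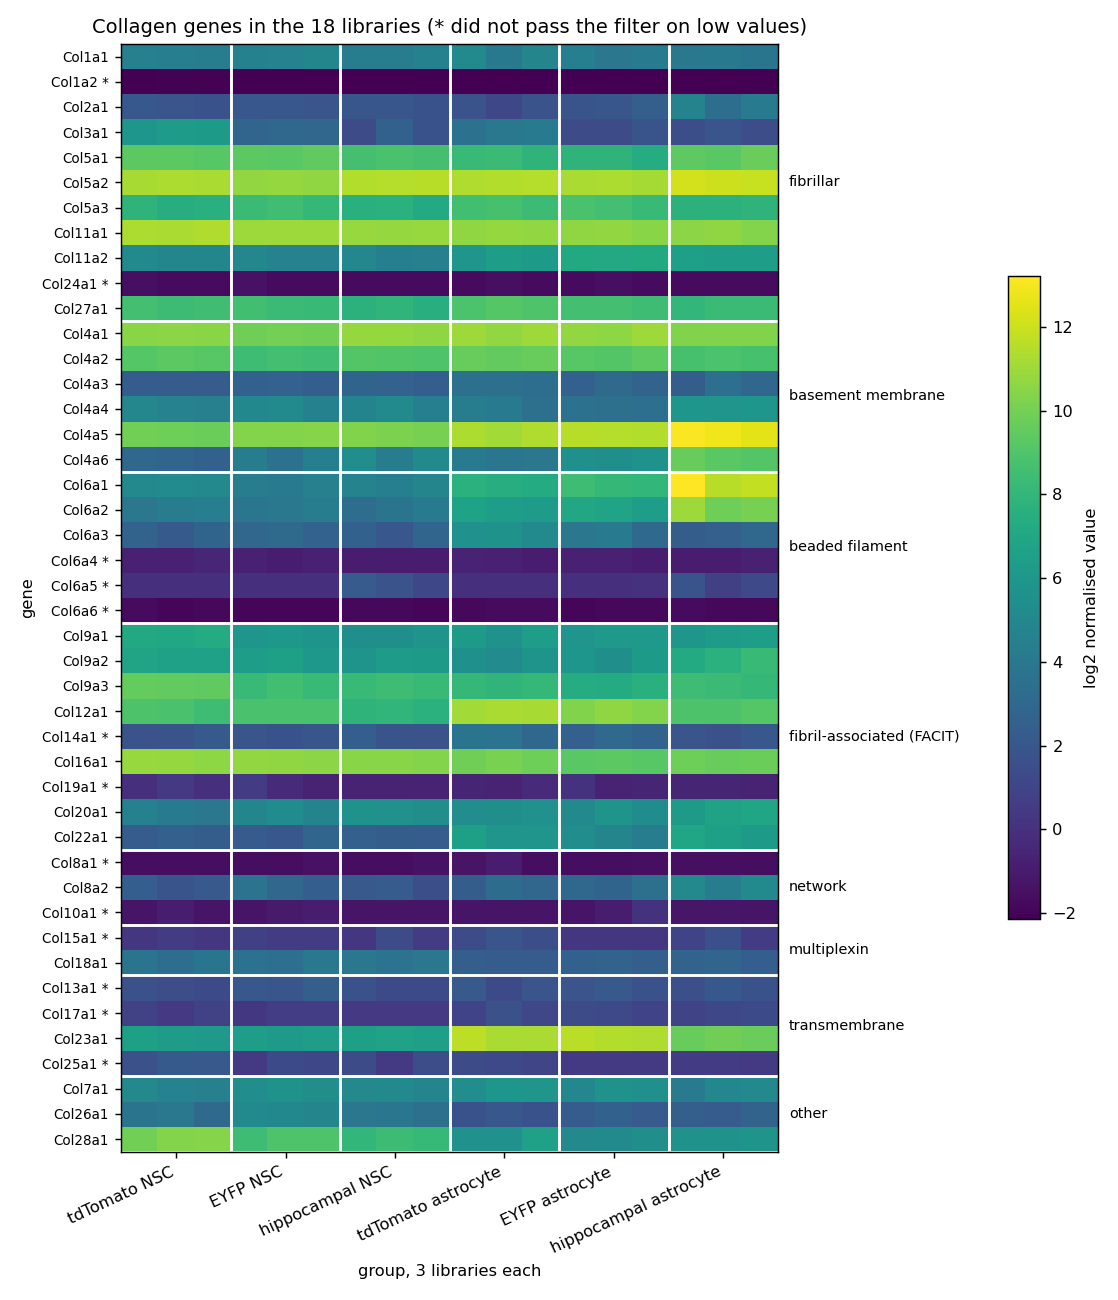
Deposited log2 values of the 44 collagen genes (rows, by class) in the 18 libraries (columns, 3 per group), with an asterisk on the 13 genes that did not pass the filter. Col23a1, Col6a1 and Col6a2 are brighter in the astrocyte columns than in the NSC columns, Col28a1 is darker there, and Col1a2 is dark in all columns.

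The most abundant collagen messages changed with the fate and with the line. With exon length taken out (log2 value minus log2 of the merged exon length in kb, used for every order between genes), Col5a2, a chain of fibrillar collagen V, was the highest collagen gene in the hippocampal NSCs, at 8.22. In the tdTomato NSCs Col5a2 (8.01 ± 0.04, SD, n = 3), Col16a1 (7.98 ± 0.13) and Col28a1 (7.95 ± 0.29) lay within their spread of each other. In EYFP NSCs the FACIT Col16a1 was highest at 7.88. In both kinds of traced astrocytes the highest was Col23a1, a collagen that spans the plasma membrane, at 8.89 (tdTomato) and 8.98 (EYFP), followed by Col4a5 (8.52 and 8.75). In hippocampal astrocytes Col4a5 (10.11 ± 0.25, SD, n = 3) and Col6a1 (10.07 ± 0.88) were highest and lay closer to each other than their spread.

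As shares of the summed per-length level of the 44 genes, fibrillar chains made up 32.6% ± 0.58 of the collagen message in tdTomato NSCs, 34.9% ± 0.70 in EYFP NSCs and 36.8% ± 1.12 in hippocampal NSCs (SD, n = 3). In astrocytes their share was 24.9% ± 1.97, 23.8% ± 1.46 and 18.1% ± 3.61 in the same order. What took their place differed by line. Transmembrane chains, almost all of it Col23a1, went from 0.85% and 1.11% in the traced NSCs to 20.9% ± 2.50 and 23.4% ± 1.35 in the traced astrocytes, but from 1.22% to only 3.89% ± 1.08 in the hippocampal line. Beaded filament chains were at 0.54% to 0.60% in all 3 kinds of NSCs, and at 2.43% ± 0.27, 3.75% ± 0.47 and 32.1% ± 11.6 in tdTomato, EYFP and hippocampal astrocytes. The wide spread of the last value came from its replicate 1, at 45.3%, against 23.3% and 27.8% in replicates 2 and 3. FACIT chains went from 29.1%, 28.2% and 23.5% of the sum in NSCs to 18.1%, 12.8% and 9.15% in astrocytes, and basement membrane chains held 22.9% to 33.3% in NSCs and 32.7% to 36.2% in astrocytes. Shares carry no test here, and a class can lose share because another class gained.

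**Figure D2:**
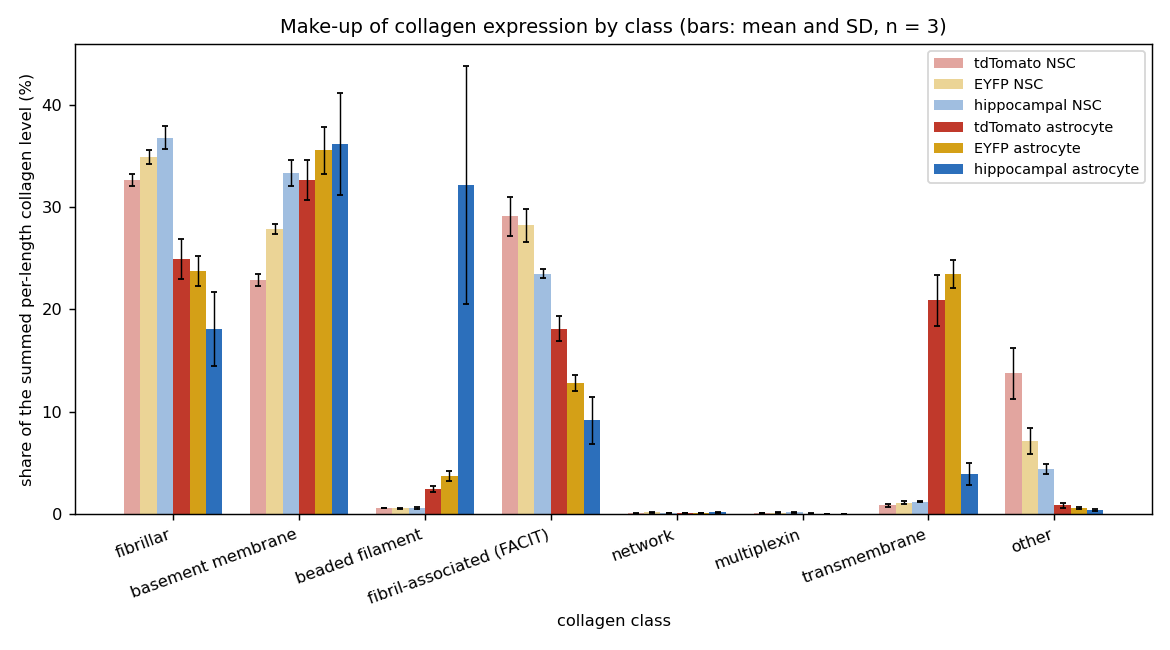
Share of the summed per-length collagen level (percent, y axis) held by each of the 8 classes of collagen genes (x axis) in the 6 groups, as mean and SD of 3 libraries. The transmembrane bars of both traced astrocyte groups stand above 20%, and the beaded filament bar stands at 32.1% in the hippocampal astrocytes only.

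From NSC to astrocyte, 28 of the 31 tested collagen genes changed in the tdTomato line, 17 rising and 11 falling, where 78.4% of all genes tested were called (39.9% up, 38.5% down). In the EYFP line 22 changed, 12 up and 10 down, against 75.2% of all genes (38.2% up, 37% down), and in the hippocampal line 24 changed, 17 up and 7 down, against 76.3% (39% up, 37.3% down). The EYFP and hippocampal counts were thus near the share of all genes. The median log2 change of the 31 was 0.41, 0.20 and 0.55 in the 3 lines, next to 0.01, 0.01 and 0.02 over all genes tested. Each of the 31 was called in at least 1 line: 9 rose in all 3 (Col4a5, Col4a6, Col5a2, Col6a1, Col6a2, Col11a2, Col12a1, Col22a1 and Col23a1), 5 fell in all 3 (Col11a1, Col16a1, Col18a1, Col26a1 and Col28a1) and 4 went in opposite directions in the traced and the hippocampal lines (Col4a1, Col4a2, Col4a4 and Col5a1). Over all genes tested, 92.5% were called in at least 1 line, 28.1% rose in all 3, 27.8% fell in all 3, and 2.19% went in opposite directions in the traced and the hippocampal lines.

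**Figure D3:**
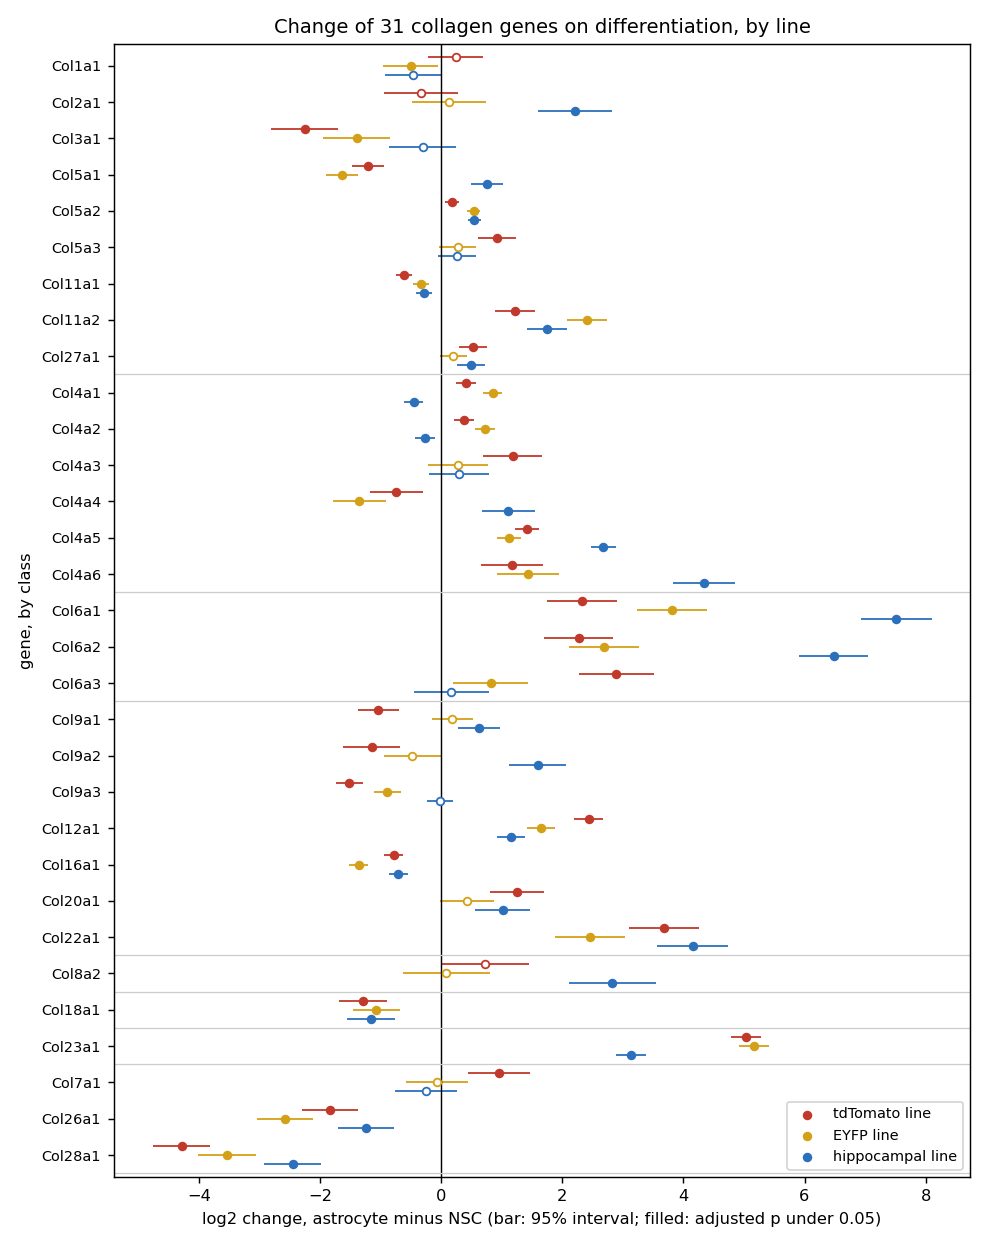
Log2 change from NSC to astrocyte (x axis) of the 31 tested collagen genes (y axis, by class) in the tdTomato, EYFP and hippocampal lines, with 95% intervals and filled points where the adjusted p was below 0.05. Col23a1 lies farthest to the right in both traced lines, Col6a1 and Col6a2 in the hippocampal line, and Col28a1 farthest to the left in all 3.

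The beaded filament genes Col6a1 and Col6a2, which encode the first chains of collagen VI, rose in every line and most in the hippocampal line. Col6a1 had log2 values of 5.07, 5.26 and 5.10 in the tdTomato NSCs, 4.32, 4.21 and 4.52 in the EYFP NSCs and 4.71, 4.49 and 4.85 in the hippocampal NSCs. It had 7.67, 7.41 and 7.31 in the tdTomato astrocytes, 8.41, 8.07 and 8.02 in the EYFP astrocytes and 13.21, 11.58 and 11.82 in the hippocampal astrocytes. Astrocytes lay above NSCs in every line without overlap, and the hippocampal astrocytes lay above all traced astrocytes, with replicate 1 highest. The log2 change of Col6a1 was 2.32 ± 0.28 in the tdTomato line, 3.82 ± 0.28 in the EYFP line and 7.52 ± 0.28 in the hippocampal line (SE; limma adjusted p of 4.54e-07, 6.21e-10 and 4.03e-14). Without replicate 1 of the hippocampal astrocytes its change in that line was 7.01. The traced change was smaller than the hippocampal one by 4.45 ± 0.34 (limma adjusted p = 1.1e-08).

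Col6a2 had the same order of lines in the astrocyte means and in the fate changes, at lower values. In NSCs it had 3.95, 4.34 and 4.45 in the tdTomato NSCs, 3.88, 4.02 and 4.38 in the EYFP NSCs and 3.33, 3.76 and 4.27 in the hippocampal NSCs, and in astrocytes 6.77, 6.46 and 6.31 in the tdTomato astrocytes, 7.04, 6.83 and 6.48 in the EYFP astrocytes and 10.96, 9.79 and 10.05 in the hippocampal astrocytes. Again no astrocyte library overlapped an NSC library, and the hippocampal astrocytes were the highest 3. From NSC to astrocyte its log2 change was 2.27 ± 0.27 in the tdTomato line, 2.69 ± 0.27 in the EYFP line and 6.48 ± 0.27 in the hippocampal line (limma adjusted p of 5.53e-07, 6.47e-08 and 2.74e-13). Col6a1 and Col6a2 lie 85.2 kb apart on chromosome 10, on the same strand.

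Col6a3, the chain that joins those of Col6a1 and Col6a2 in the usual collagen VI trimer, did not follow them. Its log2 value went from 2.58 ± 0.31 to 5.48 ± 0.26 (SD, n = 3) in the tdTomato line, a rise of 2.89 ± 0.29, and from 2.93 ± 0.23 to 3.74 ± 0.57 in the EYFP line, a rise of 0.82 ± 0.29 that was not called without replicate 1 or 2 of the EYFP astrocytes or replicate 3 of the EYFP NSCs. In the hippocampal line, where Col6a1 rose most, Col6a3 was at 2.50 ± 0.43 and 2.67 ± 0.35, and its change of 0.17 had an interval of -0.45 to 0.78 (limma adjusted p = 0.61). Per length, the hippocampal astrocytes held Col6a1 at 10.07, Col6a2 at 7.21 and Col6a3 at -0.91 on the log2 scale, and the tdTomato astrocytes held the same genes at 5.33, 3.46 and 1.90. Of the chains that can take the place of the Col6a3 product, Col6a4, Col6a5 and Col6a6, none passed the filter. Col6a5 was the highest of them, at up to 2.28, in a hippocampal NSC library.

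Among the basement membrane genes, Col4a5 and Col4a6 rose in all 3 lines, whereas the common chains Col4a1 and Col4a2 rose in the traced lines and fell in the hippocampal line. Col4a5 had log2 values of 9.96, 9.81 and 9.77 in the tdTomato NSCs, 10.38, 10.34 and 10.42 in the EYFP NSCs and 10.28, 10.18 and 10.07 in the hippocampal NSCs. In astrocytes it had 11.33, 11.11 and 11.37 in the tdTomato astrocytes, 11.55, 11.49 and 11.46 in the EYFP astrocytes and 13.11, 12.86 and 12.61 in the hippocampal astrocytes. The NSC groups lay close together, and the hippocampal astrocytes lay above all other libraries. Col4a5 changed by 1.42 ± 0.095 in the tdTomato line, 1.12 ± 0.095 in the EYFP line and 2.68 ± 0.095 in the hippocampal line on the log2 scale (limma adjusted p of 1.98e-10, 6.25e-09 and 2.77e-14).

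Col4a6, whose product joins that of Col4a5 in one type of collagen IV trimer, was far lower than Col4a5 in all groups. It had 3.04, 2.84 and 2.63 in the tdTomato NSCs, 4.31, 3.67 and 4.46 in the EYFP NSCs and 5.40, 4.38 and 5.20 in the hippocampal NSCs. In astrocytes it had 4.20, 3.86 and 3.97 in the tdTomato astrocytes, 5.57, 5.51 and 5.67 in the EYFP astrocytes and 9.67, 9.28 and 9.08 in the hippocampal astrocytes. Within each line the fates did not overlap, and the means kept the order tdTomato, EYFP, hippocampal in both fates, with the hippocampal astrocytes well above the rest. The log2 change was 1.17 ± 0.24 in the tdTomato line, 1.44 ± 0.24 in the EYFP line and 4.35 ± 0.24 in the hippocampal line (limma adjusted p of 0.000272, 3.69e-05 and 1.54e-11), and the difference between traced and hippocampal changes was -3.04 ± 0.30.

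Col4a1 and Col4a2, which make the collagen IV of nearly all basement membranes, start within 22 bases of each other on chromosome 8 and moved together in direction in every line. The log2 change of Col4a1 was 0.41 ± 0.077 in the tdTomato line, 0.85 ± 0.077 in the EYFP line and -0.46 ± 0.077 in the hippocampal line, and that of Col4a2 was 0.37 ± 0.077 in the tdTomato line, 0.72 ± 0.077 in the EYFP line and -0.27 ± 0.077 in the hippocampal line. All 6 changes passed the test and all were below 1 in size. The difference between the traced and the hippocampal changes was 1.09 ± 0.094 for Col4a1 and 0.82 ± 0.095 for Col4a2 (limma adjusted p of 5.57e-08 and 1.76e-06). The last pair, Col4a3 and Col4a4, has starts 71 bases apart on chromosome 1 but did not move together. Col4a4 fell by 0.74 and 1.35 in the tdTomato and EYFP lines and rose by 1.10 in the hippocampal line, while Col4a3 rose in the tdTomato line only (1.18 ± 0.23), with changes of 0.28 and 0.29 that did not pass in the others. Col4a3 was at or below 3.49 as a mean in every group, and 5.65% of its exon bases are shared with a gene on the opposite strand, C430014B12Rik, whose reads may be counted with it, since the sources disagree on the library kit.

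The transmembrane collagen Col23a1 had the largest rise of the tested collagen genes in both traced lines. Its values were 6.60, 6.37 and 6.14 in the tdTomato NSCs, 6.42, 6.17 and 6.39 in the EYFP NSCs and 6.58, 6.71 and 6.50 in the hippocampal NSCs. They were 11.66, 11.27 and 11.28 in the tdTomato astrocytes, 11.63, 11.46 and 11.39 in the EYFP astrocytes and 9.65, 9.85 and 9.71 in the hippocampal astrocytes. The NSC libraries of all lines lay within a narrow range, all astrocytes lay above all NSCs, and the traced astrocytes lay above the hippocampal ones. The log2 change was 5.03 ± 0.12 in the tdTomato line, 5.17 ± 0.12 in the EYFP line and 3.14 ± 0.12 in the hippocampal line (limma adjusted p of 1.17e-16, 8.43e-17 and 5.41e-14). The traced change was larger by 1.96 ± 0.14 (limma adjusted p = 7.61e-09), and the change in the tdTomato line differed from that in the EYFP line by -0.13, with an interval of -0.48 to 0.22. The other 3 transmembrane genes did not pass the filter.

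**Figure D4:**
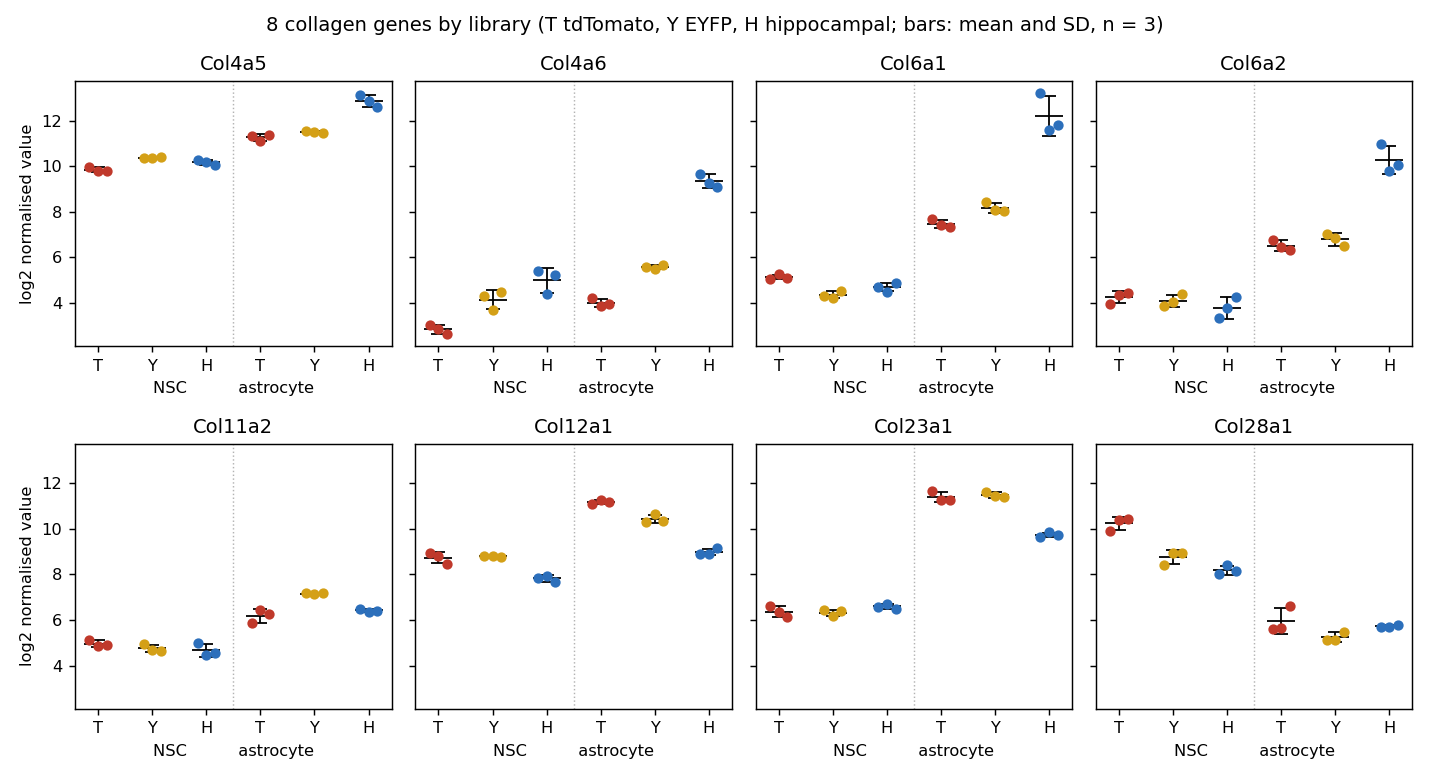
Log2 values (y axis) of the 8 collagen genes given library by library, as points for each library with the mean and SD of 3, for tdTomato (T), EYFP (Y) and hippocampal (H) NSCs and astrocytes (x axis). Fates do not overlap within a line for any of the 8 genes, and hippocampal astrocytes stand highest for Col4a5, Col4a6, Col6a1 and Col6a2 and lowest of the astrocytes for Col12a1 and Col23a1.

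Fibrillar collagen genes went in both directions. Of the 9 tested, 4 rose and 3 fell in the tdTomato line (39.9% and 38.5% of all genes), 2 rose and 4 fell in the EYFP line (38.2% and 37% of all genes), and 5 rose and 1 fell in the hippocampal line (39% and 37.3% of all genes). The fibrillar genes at the highest levels changed little: Col5a2 rose by 0.18, 0.54 and 0.55, and Col11a1 fell by 0.61, 0.34 and 0.29. Col5a1, whose product shares a trimer with that of Col5a2, fell by 1.21 ± 0.13 and 1.65 ± 0.13 in the traced lines and rose by 0.75 ± 0.13 in the hippocampal line. The difference between these changes was -2.18 ± 0.15 (limma adjusted p = 5e-09). Col5a3 rose in the tdTomato line (0.93 ± 0.15), with changes of 0.27 and 0.26 that did not pass in the others.

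Col11a2, a chain of the minor fibrillar collagen XI, rose in all 3 lines. It had 5.13, 4.87 and 4.89 in the tdTomato NSCs, 4.94, 4.69 and 4.64 in the EYFP NSCs and 4.99, 4.45 and 4.57 in the hippocampal NSCs. In astrocytes it had 5.85, 6.43 and 6.24 in the tdTomato astrocytes, 7.18, 7.13 and 7.18 in the EYFP astrocytes and 6.49, 6.37 and 6.40 in the hippocampal astrocytes. The fates did not overlap, and the EYFP astrocytes lay above the other astrocytes. The log2 change was 1.22 ± 0.16 in the tdTomato line, 2.41 ± 0.16 in the EYFP line and 1.75 ± 0.16 in the hippocampal line (limma adjusted p of 1.5e-06, 1.68e-10 and 1.25e-08). Col27a1 rose by 0.52 and 0.50 in the tdTomato and hippocampal lines.

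The chains of the main connective tissue collagens were low. Col1a1 had group means of 3.96 to 4.72 and Col1a2, its partner in collagen I, stayed between -2.14 and -2.06 in all 18 libraries, the bottom of the table's range. Col1a1 fell by 0.51 in the EYFP line, a call lost in 7 of 18 fits without a library, and had changes of 0.24 and -0.47 in the others that did not pass. Col2a1, the main collagen of cartilage, was at 1.58 to 2.11 in 5 groups and at 4.08 ± 0.67 in hippocampal astrocytes, a rise of 2.21 ± 0.29 in that line. Col3a1, found with collagen I in most soft tissues, was highest in the tdTomato NSCs, at 5.91, 6.33 and 6.20, and fell by 2.25 ± 0.26 in the tdTomato and 1.39 ± 0.26 in the EYFP line. Col1a1, Col2a1 and Col3a1 are among the low genes whose changes the deposited scale may understate.

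Of the 7 FACIT genes tested, 3 rose and 4 fell in the tdTomato line, 2 rose and 2 fell in the EYFP line, and 5 rose and 1 fell in the hippocampal line, beside the same shares of all genes: 39.9% and 38.5%, 38.2% and 37%, and 39% and 37.3%. Col12a1, which binds collagen I fibrils in tendon and skin, had 8.94, 8.81 and 8.45 in the tdTomato NSCs, 8.82, 8.82 and 8.77 in the EYFP NSCs and 7.86, 7.95 and 7.67 in the hippocampal NSCs. In astrocytes it had 11.08, 11.25 and 11.17 in the tdTomato astrocytes, 10.32, 10.65 and 10.37 in the EYFP astrocytes and 8.92, 8.90 and 9.14 in the hippocampal astrocytes. In each fate the hippocampal libraries lay below those of both traced lines, and in each line the astrocytes lay above the NSCs. The log2 change was 2.43 ± 0.11 in the tdTomato line, 1.64 ± 0.11 in the EYFP line and 1.16 ± 0.11 in the hippocampal line (limma adjusted p of 8.76e-13, 2.27e-10 and 2.49e-08).

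Col22a1, known from tissue junctions such as that of muscle and tendon, rose from group means of 2.40 to 2.43 in NSCs to 6.11 ± 0.43, 4.86 ± 0.52 and 6.58 ± 0.32 in tdTomato, EYFP and hippocampal astrocytes, log2 changes of 3.68, 2.46 and 4.15. Col16a1, the highest FACIT gene per length in NSCs, fell by 0.78, 1.36 and 0.71. Col20a1 rose by 1.25 and 1.01 in the tdTomato and hippocampal lines, and its change of 0.42 in the EYFP line did not pass. The 3 genes of collagen IX, a partner of collagens II and XI on cartilage fibrils, differed from each other. Col9a1 fell by 1.04 in the tdTomato line and rose by 0.62 in the hippocampal line. Col9a2 did the same with larger values, falling by 1.15 and rising by 1.59. Col9a3 fell by 1.52 in the tdTomato and 0.89 in the EYFP line and had a change of -0.02 (interval -0.24 to 0.20) in the hippocampal line. Of the exon bases of Col9a3, 6.07% are shared with Tcfl5 on the opposite strand.

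Col28a1, a collagen with von Willebrand factor domains that is best known from Schwann cells, had the largest fall of the tested collagen genes in every line. Its log2 values were 9.91, 10.39 and 10.43 in the tdTomato NSCs, 8.42, 8.96 and 8.96 in the EYFP NSCs and 8.01, 8.40 and 8.15 in the hippocampal NSCs. They were 5.61, 5.63 and 6.63 in the tdTomato astrocytes, 5.11, 5.13 and 5.49 in the EYFP astrocytes and 5.69, 5.70 and 5.80 in the hippocampal astrocytes. All NSCs lay above all astrocytes, the tdTomato NSCs were the highest, and replicate 3 of the tdTomato astrocytes stood above the other astrocytes. The log2 change was -4.29 ± 0.23 in the tdTomato line, -3.54 ± 0.23 in the EYFP line and -2.45 ± 0.23 in the hippocampal line (limma adjusted p of 6.92e-12, 1.13e-10 and 1.61e-08). Egr2, a transcription factor of myelinating Schwann cells and the only gene of the Schwann cell markers to pass the filter, fell as well, by 1.91, 3.10 and 3.26, and the part of such cells in the fall of Col28a1 was not tested. Col26a1 also fell, by 1.83, 2.58 and 1.24, and Col7a1, which anchors epithelia to the tissue below, rose in the tdTomato line only (0.95 ± 0.24), with changes of -0.07 and -0.25 in the others that did not pass. The multiplexin Col18a1, the source of endostatin, fell by 1.29, 1.07 and 1.16 from NSC means of 3.65 to 3.84. The network collagen Col8a2, known from the cornea, rose in the hippocampal line only (2.83 ± 0.34), and its changes of 0.73 and 0.09 in the traced lines did not pass.

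Between traced and hippocampal NSCs, 15 of the 31 collagen genes differed, 11 higher in the traced lines and 4 lower, where 31.9% of all genes were called (17% higher, 14.9% lower). Between the astrocytes, 24 differed, 11 higher and 13 lower, against 59.7% of all genes (27.9% higher, 31.9% lower). Both counts were above the share of all genes, and in these tests the mean of both traced lines was set against the hippocampal line. In NSCs the largest differences were Col3a1 (2.62 ± 0.23, traced minus hippocampal), Col4a6 (-1.50 ± 0.21), Col28a1 (1.33 ± 0.20), Col20a1 (-0.97 ± 0.18), Col12a1 (0.94 ± 0.095) and Col9a1 (0.92 ± 0.14). For all of these but Col12a1 the EYFP NSCs lay nearer to the hippocampal than to the tdTomato NSCs. The means of Col4a6 were 2.84, 4.15 and 5.00 in tdTomato, EYFP and hippocampal NSCs, and those of Col20a1 were 4.24, 5.01 and 5.59. For Col3a1, Col28a1 and Col9a1 the EYFP NSCs were at 2.95, 8.78 and 5.90, the hippocampal NSCs at 1.93, 8.19 and 5.61 and the tdTomato NSCs at 6.15, 10.24 and 7.17. Col3a1, Col28a1 and Col9a1 were not called when the traced libraries were counted as 1 group of 6 (limma adjusted p of 0.079, 0.0623 and 0.119), a setting under which 7 collagen genes of the 31 and 18.6% of all genes differed in NSCs.

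In astrocytes the traced lines were lower in Col4a6 (-4.55 ± 0.21), Col6a1 (-4.39 ± 0.24), Col6a2 (-3.62 ± 0.24), Col2a1 (-2.23 ± 0.25), Col4a4 (-2.12 ± 0.18), Col9a2 (-1.99 ± 0.19), Col8a2 (-1.83 ± 0.30), Col5a1 (-1.57 ± 0.11), Col4a5 (-1.47 ± 0.083), Col20a1 (-1.14 ± 0.18) and Col22a1 (-1.10 ± 0.24). They were higher in Col6a3 (1.94 ± 0.25), Col12a1 (1.82 ± 0.095) and Col23a1 (1.71 ± 0.10). Col3a1 was higher in their mean (1.10 ± 0.23), but the EYFP astrocytes, at 1.56, were no higher than the hippocampal astrocytes at 1.62, and the tdTomato astrocytes were at 3.89. For Col22a1 the tdTomato astrocytes (5.84 to 6.60) overlapped the hippocampal ones (6.25 to 6.90), and the EYFP astrocytes had a mean of 4.86. Of these 15 genes, Col6a1, Col6a2, Col2a1, Col4a4, Col9a2, Col8a2, Col4a5, Col22a1, Col6a3 and Col23a1 did not pass in NSCs, and Col5a1 was higher in traced than in hippocampal NSCs by 0.61. The test of the difference between the fate changes was passed by 22 of the 31 collagen genes, with a lower change in the traced lines for 17 and a higher one for 5, against 46.2% of all genes (25.9% lower and 20.3% higher). For each of Col6a1, Col6a2 and Col4a6 the gap between the fate changes was over 3 log2 units.

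**Figure D5:**
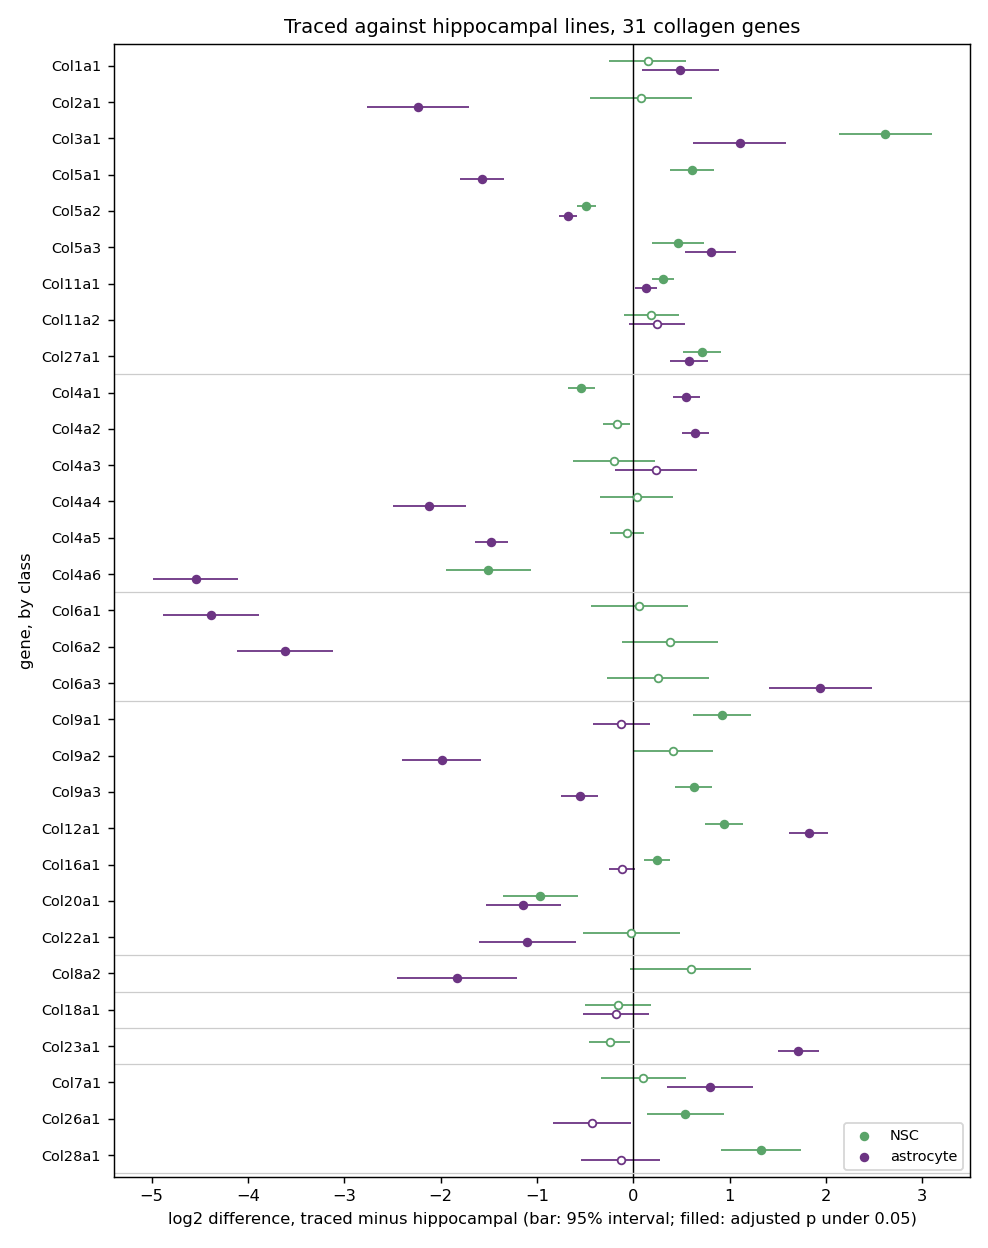
Log2 difference between the mean of the traced lines and the hippocampal line (x axis) for the 31 tested collagen genes (y axis, by class) in NSCs and in astrocytes, with 95% intervals and filled points where the adjusted p was below 0.05. The astrocyte points of Col4a6, Col6a1 and Col6a2 lie beyond -3, whereas in NSCs only Col3a1 lies beyond 2 on either side.

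The traced lines also differed from each other. In NSCs 15 of the 31 collagen genes differed, 9 higher and 6 lower in the tdTomato line, where 31.4% of all genes were called (16.4% higher, 14.9% lower). In astrocytes 13 differed, 11 higher and 2 lower, against 14.4% of all genes (7.06% higher, 7.31% lower). Col3a1 differed most in both fates, by 3.20 ± 0.26 in NSCs and 2.34 ± 0.26 in astrocytes (limma adjusted p of 1.13e-07 and 6.37e-06). Its values of 3.59, 3.99 and 4.10 in tdTomato astrocytes lay above those of 1.38, 1.45 and 1.84 in EYFP astrocytes. The tdTomato NSCs were also higher in Col28a1 (1.46), Col9a1 (1.27) and Col9a3 (1.20) and lower in Col26a1 (-1.34) and Col4a6 (-1.31). In astrocytes Col6a3 (1.73) and Col22a1 (1.25) were higher in the tdTomato line, and Col4a6 (-1.57) and Col11a2 (-0.99) were the 2 that were lower. The fate change itself differed between the traced lines for 12 collagen genes, 5 higher and 7 lower in the tdTomato line, against 13.3% of all genes (6.36% higher, 6.98% lower). All these comparisons share control libraries with those above.

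Genes whose products modify, process or bind collagen were followed as a list of 55, of which 53 had a row in the table and 45 passed the filter, while the other 2 were not analysed here. In astrocytes 12 rose and 21 fell in the tdTomato line, 11 rose and 21 fell in the EYFP line, and 16 rose and 22 fell in the hippocampal line, with median log2 changes of -0.08, -0.13 and -0.10. Over all genes, 39.9%, 38.2% and 39% rose and 38.5%, 37% and 37.3% fell in the same lines. Of 14 tested enzymes of collagen hydroxylation and glycosylation, 10, 9 and 11 fell in the 3 lines, next to 38.5%, 37% and 37.3% of all genes, and 2 rose, both in the hippocampal line. P3h4, which takes part in the hydroxylation of collagen lysines, fell by 1.38, 1.23 and 1.06. Crtap and P3h3, of the same list, fell as well, Crtap by 1.31, 0.87 and 0.62 and P3h3 by 1.02, 1.17 and 0.31. The prolyl hydroxylase subunit P4ha2 rose in the hippocampal line by 1.11. P3h2, a prolyl hydroxylase that acts on collagen IV, rose in the hippocampal line by 2.95 ± 0.19, from 6.26 ± 0.46 to 9.21 ± 0.19, and the traced change minus the hippocampal one was -3.02 ± 0.23 (limma adjusted p = 1.15e-08). The cross-linking enzyme Loxl2 fell by 2.51, 2.80 and 2.33. Adamts2, which removes the propeptides of fibrillar collagens, rose by 1.74, 1.19 and 1.96. Of the 6 tested genes of propeptide cleavage, 4, 2 and 2 rose and 1, 1 and 3 fell in the 3 lines. Bmp1, which cleaves the C-terminal propeptides, rose by 0.39, 0.36 and 1.05, whereas Adamts14 and Pcolce2 fell in the hippocampal line, by 1.26 and 1.41, and Adamts14 rose by 0.68 in the tdTomato line.

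Of the small proteoglycans that bind collagen fibrils, all 4 tested rose in both traced lines and 3 rose in the hippocampal line, next to 39.9%, 38.2% and 39% of all genes. Fmod (fibromodulin) rose from group means of 4.44 to 4.73 in NSCs to 11.02 ± 0.17, 10.32 ± 0.19 and 10.53 ± 0.04 in tdTomato, EYFP and hippocampal astrocytes, log2 changes of 6.58, 5.59 and 5.98. Prelp rose by 2.89, 2.51 and 4.20 and Bgn (biglycan) by 3.87, 3.39 and 1.92. Lum (lumican) rose in the tdTomato and EYFP lines by 1.48 ± 0.31 and 0.83 ± 0.31 and had means of 1.50 and 1.56 in the hippocampal line, below the filter level. Ddr1, a receptor for fibrillar collagens and collagen IV, rose by 1.05, 0.72 and 1.42, and Lair1, an inhibitory collagen receptor, by 1.04, 0.74 and 0.88. Adgrg6 fell by 0.95 and 1.18 in the tdTomato and EYFP lines and rose by 0.52 in the hippocampal line, and the integrin subunit Itga2 rose in the hippocampal line by 1.23. Of the 10 receptor genes tested, 3, 3 and 6 rose and 4, 5 and 3 fell, next to 39.9%, 38.2% and 39% of all genes that rose and 38.5%, 37% and 37.3% that fell.

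The cultures were checked against markers of NSCs, astrocytes and other cells that make collagen. Gfap rose from group means of 9.06 to 9.30 in NSCs to 15.14, 15.67 and 16.40 in tdTomato, EYFP and hippocampal astrocytes. All 7 astrocyte markers had a mean over the filter level in each group. Their summed linear level was 34150 to 43150, 50530 to 58750 and 74530 to 75620 in tdTomato, EYFP and hippocampal NSCs. In the astrocytes it was 154900 to 180000, 175200 to 210900 and 229900 to 258100, with Gfap part of the sum. Of 5 NSC markers, Fabp7 fell in all 3 lines, Nes fell in the tdTomato and EYFP lines (by 3.18 and 3.05, with a change of -0.22 that did not pass in the hippocampal line), and Sox2, Vim and Prom1 rose in all 3. Pericytes and other mural cells are a known source of collagens I, III, IV and VI. Of 7 mural markers, 3 had a mean over the filter level in each kind of NSCs and 5 in each kind of astrocytes, and their summed linear level was 108 to 265, 214 to 275 and 86.3 to 111 in tdTomato, EYFP and hippocampal NSCs and 447 to 487, 418 to 497 and 291 to 341 in the astrocytes. The defining mural gene Pdgfrb was below the filter level in every library, while Kcnj8, Rgs5 and Abcc9 rose and Acta2 fell in all 3 lines. Kcnj8 rose by 3.99, 4.74 and 4.92, and Acta2 fell by 2.65, 3.86 and 1.30. Myh11 also rose in the tdTomato and EYFP lines, and Tagln fell in the EYFP line.

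The 8 fibroblast and meningeal markers summed to 1014 to 1208, 661 to 700.4 and 696 to 769 in tdTomato, EYFP and hippocampal NSCs and to 1356 to 1517, 1142 to 1288 and 880.4 to 990.1 in the astrocytes, with 4 or 5 of the 8 over the filter level. Of these markers Prrx1 rose by 2.47, 2.33 and 1.76, Pdgfra fell in all 3 lines, Tbx18 fell in the tdTomato and hippocampal lines, Twist1 fell in the EYFP and hippocampal lines, and Lum rose as given above. Twist2, Foxd1 and Dcn were below it in every library. The endothelial genes Pecam1 and Cdh5, all 4 microglia and macrophage genes with a row (Ptprc, Csf1r, Itgam and Aif1) and the oligodendrocyte genes Sox10 and Mog were also below it in every library. The endothelial genes Kdr and Tek passed the filter, at group means of at most 3.55 and 3.82. Kdr fell in all 3 lines and Tek in the tdTomato and EYFP lines. In the oligodendrocyte lineage, Olig2 fell in all 3 lines, and Mbp fell in the EYFP line and rose in the hippocampal line. The part of these cell types in the collagen levels was not tested, and in such bulk samples fewer cells of a type and less RNA per cell cannot be told apart. Library medians over all tested genes lay between 8.80 and 8.90, and correlations between replicates between 0.993 and 0.996.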

How the data were processed

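Poly(A) RNA of 18 cultures was measured by single-end sequencing. Per the paper and the labels, the authors trimmed reads (Trimmomatic 0.36), aligned them with STAR (2.5.2) to GRCm38, estimated gene counts with RSEM (1.3.0 in the labels, another version in the paper) and normalised them with DESeq2 (1.18.1). The authors deposited log2 values for 27997 genes, 29.4% of them negative, which look like a regularized log. The transform is not named. Counts cannot be recovered, so depth per library was not available from the table (the paper gives only an approximate figure common to all samples) and counting intervals were not computed. The kit is TruSeq Stranded in the labels and KAPA in the paper, so strand is uncertain.

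Values were used as deposited. One limma model (3.58.1, R 4.3.3, variance trend) of 6 group means over 18 libraries gave 9 contrasts, with Benjamini-Hochberg adjustment over 15448 genes and a threshold of 0.05. Coordinates and exon lengths are from GENCODE on GRCm38. The FACIT gene Col21a1 was not analysed here. Values are given by library for genes with a group mean of at least 6.64 and a called log2 difference of at least 2 between fates or lines. Of the genes for collagen production, those with a called fate change of at least 1 in some line were named. The members, classes and lists were chosen with earlier results of these data known. In simulated data with 200 genes changed in a single group, 79.1% to 97% of changes of 1 were recovered in the 9 contrasts over 15448 genes. The fate contrasts called a far larger part of the genes, so this recovery does not carry over to them directly. Replicates came from titles. Alternatives were other filters, scalings, models, a replicate block and leaving out libraries.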

Additional observations from a re-analysis of the deposited data

Results flagged for a closer look

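For 17 of the 31 tested collagen genes, next to 10.2% of all genes tested, the change from NSC to astrocyte in the mean of the traced lines was at least 1 log2 unit away from that in the hippocampal line, and the limma test of this difference was passed, with adjusted p from 5e-09 (Col5a1) to 0.0144 (Col22a1). The traced change was lower for Col6a1 (-4.45), Col6a2 (-4.00), Col4a6 (-3.04), Col8a2 (-2.42), Col9a2 (-2.40), Col2a1 (-2.32), Col5a1 (-2.18), Col4a4 (-2.15), Col3a1 (-1.51), Col28a1 (-1.46), Col4a5 (-1.41), Col9a3 (-1.19), Col22a1 (-1.08) and Col9a1 (-1.05). It was higher for Col23a1 (1.96), Col6a3 (1.69) and Col4a1 (1.09). For Col4a1, Col4a4 and Col5a1 the changes were called in opposite directions in the traced and the hippocampal lines. With the traced libraries as 1 group, Col3a1, Col22a1 and Col9a1 were not called (limma adjusted p of 0.354, 0.0995 and 0.0625), and Col22a1 was also not called without replicate 1 of the hippocampal astrocytes (limma adjusted p = 0.0511).

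For 5 of the 31, next to 2.4% of all genes tested, the change differed by at least 1 between the tdTomato and the EYFP lines, with limma adjusted p from 0.00207 (Col11a2) to 0.0472 (Col22a1). The tdTomato change was higher for Col6a3 (2.08) and Col22a1 (1.22) and lower for Col6a1 (-1.49), Col9a1 (-1.22) and Col11a2 (-1.19). The call for Col22a1 was lost in 14 of the 18 fits that left out a library and in the fit of only the traced libraries (limma adjusted p = 0.0783).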

How the results depend on the processing

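Across 279 pairs of collagen gene and contrast, 7119 alternative values were computed. Of these 6871 kept their side of the threshold, 150 fell short of it and 98 newly passed it. The sign was compared only where the main or the alternative value was called, and there 0 changed sign. With only the libraries of the contrast, and the traced lines as 1 group of 6, traced and hippocampal NSCs differed in 7 collagen genes in place of 15, all 7 shared with the 15, and 18.6% of all genes were called in place of 31.9%. The traced lines then contribute their own difference to the spread. With a filter at 100 on the linear scale, traced and hippocampal astrocytes differed in 15 collagen genes in place of 24, since only 19 were tested, and 64.3% of all genes tested were called. With the longest transcript as length, the highest per-length collagen level was 8.54 in tdTomato NSCs, 8.25 in EYFP NSCs and 8.75 in hippocampal NSCs, Col6a1 passed Col4a5 in hippocampal astrocytes, and Col5a2 passed Col4a5 in tdTomato astrocytes (8.73 against 8.56).

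Leaving out a library in turn gave 28 to 29 called collagen genes (75.2% to 79% of all genes tested) for the fate change in the tdTomato line, 20 to 23 (71.9% to 75.9%) in the EYFP line and 23 to 25 (73.2% to 77%) in the hippocampal line. It gave 13 to 16 (25.7% to 32.8%) for traced against hippocampal NSCs and 21 to 25 (54% to 60.4%) for the astrocytes. Between the tdTomato and EYFP lines it gave 12 to 16 (21% to 32.7%) in NSCs and 11 to 15 (9.82% to 15.1%) in astrocytes. For the difference between traced and hippocampal changes it gave 19 to 23 (41.9% to 47.5%), and for that between the traced lines 9 to 13 (8.54% to 16.2%).

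Whether the replicate numbers of the titles pair the samples is not settled. The deviations of same-numbered libraries from their group means correlated at 0.106 on average over 18 pairs of 1 fate (0.0117 to 0.313) and at -0.00544 over 27 pairs of different fates, against -0.0197 over 90 pairs with other numbers. In 46 of 90 comparisons a library correlated best, among the 3 libraries of another group, with its own number. These comparisons are not independent and were not set against a chance level, so they are at most a hint from the data. The labels do not tie numbers to passages, and not every pair was over 0.1, so the samples were not treated as paired. A replicate block gave 28, 22 and 24 called collagen genes for the fate changes, 16 and 24 for traced against hippocampal, 15 and 13 for tdTomato against EYFP, and 23 and 14 for the differences between changes. Of all genes, 78.8%, 75.7% and 76.9%, 32.9% and 60.6%, 32.5% and 15.2%, and 46.9% and 14.5% were called with the block, in the same order.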
